A study of Mus musculus with 6 samples.

Results

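Photoreceptors of the mouse retina are specified by a small network of transcription factors, and 8 of its genes were examined here: Otx2, Crx, Nrl, Nr2e3, Rxrg, Thrb, Rorb and Mef2c. The members were every probe set of the array annotated to 1 gene symbol among these 8. They came to 14 of 34945 such probe sets and to 7 of 18193 genes, and Nr2e3 was not analysed here. RNA came from pools of retinas taken at birth from mice without cyclin D1 (cyclin D1 -/-, 3 pools) and from wildtype mice (3 pools), with 1 Affymetrix expression array per pool. The labels give neither the strain, the sex, the number of animals in a pool nor the litters, so the p-values speak to the spread among 3 pools each, which may in part be technical. Ccnd1 codes for cyclin D1, the kinase partner that carries dividing cells out of G1, and the series compares transcript levels with and without it.

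Otx2 is a homeodomain factor needed for retinal cells to enter the photoreceptor lineage, and Crx, its close relative and target, drives photoreceptor genes. Rorb, a nuclear receptor, acts upstream of Nrl, and Nrl with its target Nr2e3 sets the rod fate and holds back cone genes. Cones form without Nrl, and the nuclear receptors Thrb and Rxrg control which opsin they make. Mef2c, a MADS-box factor, binds with Crx and Nrl at rod genes. In the newborn mouse most cones have already been born, while rods are still being produced from dividing progenitors. Otx2 and Crx are also used by bipolar cells, Otx2 by the pigment epithelium, and Rorb by progenitors, amacrine and horizontal cells.

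The start regions of Crx, Nrl, Rxrg and Rorb are shown because these were the 4 factors whose genotypes did not overlap, Rorb lower and the others higher. Each line holds the 250 bases before an annotated start, 5' to 3' on the gene's strand, from RefSeq on build GRCm38.p6. Capitals mark TAATCC (the site bound by Crx and Otx2), AGGTCA (the half-site of nuclear receptors) or TGCTGA (the half-site bound by Nrl), on either strand. No match of one motif overlapped another.
Crx, chr7:15879956-15880205, minus strand: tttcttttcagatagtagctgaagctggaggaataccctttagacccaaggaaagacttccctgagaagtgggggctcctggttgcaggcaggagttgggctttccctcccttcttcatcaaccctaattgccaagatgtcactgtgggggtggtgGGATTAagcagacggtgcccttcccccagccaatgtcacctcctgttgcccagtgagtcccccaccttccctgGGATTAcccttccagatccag
Nrl, chr14:55524253-55524502, minus strand: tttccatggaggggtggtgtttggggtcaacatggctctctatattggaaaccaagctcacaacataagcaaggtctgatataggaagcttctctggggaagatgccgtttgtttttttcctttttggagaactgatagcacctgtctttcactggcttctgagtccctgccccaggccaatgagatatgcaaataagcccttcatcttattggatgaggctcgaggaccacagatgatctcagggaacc
Rxrg start 1, chr1:167598112-167598361, plus strand: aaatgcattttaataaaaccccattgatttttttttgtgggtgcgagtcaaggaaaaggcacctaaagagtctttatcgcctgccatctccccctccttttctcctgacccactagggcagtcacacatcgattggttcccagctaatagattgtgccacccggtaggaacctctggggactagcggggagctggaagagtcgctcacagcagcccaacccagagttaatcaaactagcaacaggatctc
Rxrg start 2, chr1:167618015-167618264, plus strand: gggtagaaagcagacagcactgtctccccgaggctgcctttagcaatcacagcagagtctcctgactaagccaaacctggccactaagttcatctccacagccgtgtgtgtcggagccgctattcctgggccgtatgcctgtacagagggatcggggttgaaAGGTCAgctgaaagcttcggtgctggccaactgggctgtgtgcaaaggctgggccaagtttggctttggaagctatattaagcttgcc
Rorb start 1, chr19:19111197-19111446, minus strand: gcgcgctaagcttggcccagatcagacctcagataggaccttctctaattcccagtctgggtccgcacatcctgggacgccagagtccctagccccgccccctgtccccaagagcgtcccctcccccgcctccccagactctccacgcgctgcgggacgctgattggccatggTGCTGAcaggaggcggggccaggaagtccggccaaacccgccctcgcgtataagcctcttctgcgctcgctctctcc
Rorb start 2, chr19:19001118-19001367, minus strand: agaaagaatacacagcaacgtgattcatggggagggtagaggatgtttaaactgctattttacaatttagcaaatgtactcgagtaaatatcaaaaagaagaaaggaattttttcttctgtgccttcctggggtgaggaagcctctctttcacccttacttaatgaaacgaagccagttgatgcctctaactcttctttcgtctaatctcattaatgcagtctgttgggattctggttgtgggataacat
The Crx window held TAATCC at 2 places, beginning 94 and 21 bases before the start, both read as GGATTA on the strand shown. Rxrg start 2 held AGGTCA once, 88 bases before the start, and Rorb start 1 held TGCTGA once, 77 bases before the start. The Nrl window, Rxrg start 1 and Rorb start 2 held none of the 3 motifs. Of 32851 such windows in the table, 6.25% held TAATCC, 14% AGGTCA and 16.1% TGCTGA. Of 16 windows of the 8 genes, 3 held TAATCC (Crx, Otx2 start 3 and Thrb start 1), 4 held AGGTCA and 3 held TGCTGA. These are matches of letters, and binding was not measured.

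The deposited median signal of an array ran from 40.6 to 50.5 units, so values were quantile normalised and are given as log2(signal + 16). Differences are cyclin D1 -/- minus wildtype on that scale, where changes of dim genes are understated, and the number of arrays limits their precision. Ccnd1 was lower in all 3 cyclin D1 -/- pools (8.86 ± 0.05 against 12.45 ± 0.10 in wildtype, SD, n = 3 each), on the side the labels name. Hybridisation controls BioB and BioC, added to each sample, averaged 961 to 1201 units on 3 arrays (cyclin D1 -/- pools 1 and 2, wildtype pool 3) and 771 to 854 units on the other 3. The arrays were split by rank of this signal, 3 to a set, so the cut is arbitrary. The range within the brighter set was wider than the gap between the sets. Differences within each of these sets of arrays are given below, and each rests on a single array of 1 genotype. Pools 1 and 2 were more alike (SD of the log2 difference over genes 0.21 in cyclin D1 -/- and 0.22 in wildtype) than any other pair of arrays (0.28 to 0.52), and whether they share tissue is not known. Of the 18193 genes 10916 passed the filter on low signal, and all 7 measured factors were among them. In pooled tissue, fewer cells of a type and less RNA per cell cannot be told apart.

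Rorb was the only one of the 7 factors that passed the test, and it was lower without cyclin D1. Its brightest probe set gave 9.63, 9.81 and 9.76 in cyclin D1 -/- pools 1 to 3, against 10.08, 10.28 and 10.30 in wildtype pools 1 to 3. Every cyclin D1 -/- pool lay below every wildtype pool. Rorb thus fell 1.40-fold (difference -0.48, 95% interval -0.70 to -0.27, limma adjusted p = 0.0330). Lower calls at an adjusted p under 0.1 made up 2.63% of all tested genes. Crx, Nrl and Rxrg had higher values in each cyclin D1 -/- pool than in any wildtype pool, with differences of 0.31 to 0.41, and did not pass the test. Otx2, Thrb and Mef2c overlapped between the genotypes, with differences of 0.02 to 0.10. No factor passed as higher in limma, against 2.03% of all tested genes. Under the error model the labels describe none passed in either direction, against 0.806% of all tested genes higher and 1.1% lower. At an unadjusted p under 0.05 there were 3 higher (Crx, Nrl and Rxrg) and 1 lower, against 6.68% and 6.84% of all tested genes. The genotypes lay apart for 3 factors that were higher and 1 that was lower, against 10.5% and 9.48% of all tested genes. The median difference was 0.10 for the 7 factors and 0.02 for all tested genes. In the signals as deposited, where the median of all genes moved to 0.13, Crx, Nrl and Rxrg passed as higher (adjusted p = 0.0634, 0.0744 and 0.0906). They also passed with these array sets entered as a block (adjusted p = 0.0641, 0.0363 and 0.0777). None of these 3 passed with arrays centred on their medians (adjusted p = 0.252, 0.285 and 0.310). The same held when the 2 closest pools per genotype were averaged into 1 (adjusted p = 0.706, 0.554 and 0.806).

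**Figure D1:**
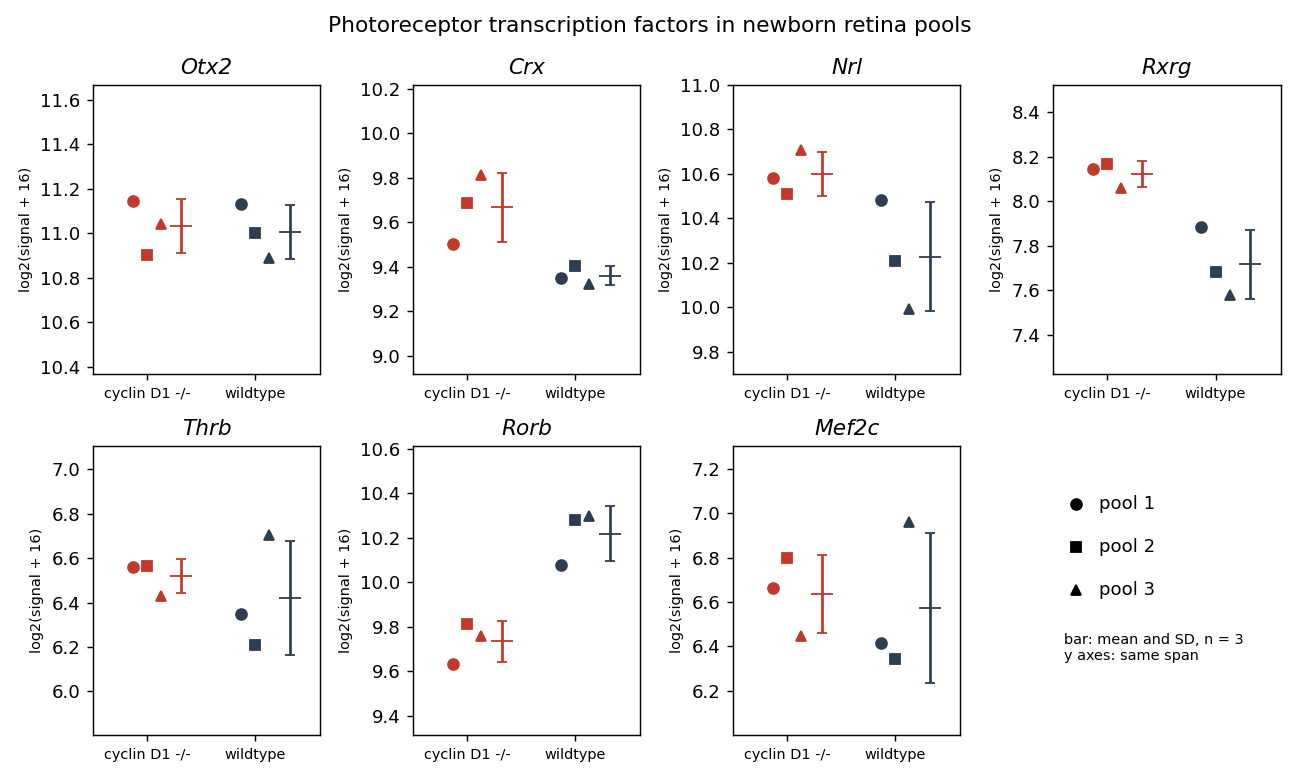
Level of each factor, as log2(signal + 16) on the y axis, in the 3 cyclin D1 -/- pools (red) and the 3 wildtype pools (dark blue), with the mean and SD beside the points and the same span on every y axis. Rorb lies lower in cyclin D1 -/- pools (9.63 to 9.81 against 10.08 to 10.30), Crx, Nrl and Rxrg lie higher without overlap, and Otx2, Thrb and Mef2c overlap.

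The 3 Rorb probe sets did not move to the same extent. The second, 1439862_at, gave 9.30, 9.26 and 9.27 in cyclin D1 -/- pools and 9.63, 9.57 and 9.63 in wildtype pools. Its genotypes did not overlap, and it passed when all probe sets were fitted on their own (difference -0.33, adjusted p = 0.0852). The third, 1425162_at, gave 8.01, 7.99 and 8.43 in cyclin D1 -/- pools and 8.38, 8.29 and 8.36 in wildtype pools. Here cyclin D1 -/- pool 3 lay above the wildtype pools, and the probe set did not pass (difference -0.20, 95% interval -0.52 to 0.12). Rorb is transcribed from more than 1 start, as the windows above show, and the annotation does not say which transcripts each probe set reads. Fitted as probe sets, 2 of 12 tested members were called lower and none called higher, against 2.02% and 1.51% of all tested probe sets.

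The Rorb call depended on scaling and on single arrays, while the direction was the same in each of 22 alternatives (differences -0.56 to -0.30). In the signals as deposited the genotypes overlapped. Rorb there read 807, 1043 and 843 units in cyclin D1 -/- pools and 1024, 1101 and 1177 units in wildtype pools. Without scaling the difference was -0.30 (adjusted p = 0.282), which lay 0.43 below the median of all genes. With arrays centred on their medians the difference was -0.36 (adjusted p = 0.307). The call also ended without wildtype pool 2, cyclin D1 -/- pool 1 or cyclin D1 -/- pool 2 (adjusted p = 0.127, 0.165 and 0.112), and when the 2 closest pools per genotype were averaged into 1 (adjusted p = 0.265). Within the sets of arrays the difference was -0.58 with brighter and -0.42 with dimmer controls. Other lists moved beside Rorb. Proliferation genes had 13 of 14 tested members called lower, against 2.63% of all tested genes, and all 14 had negative differences. Among them were the topoisomerase gene Top2a (-1.17) and the cyclin gene Ccna2 (-1.36). The summed signal of the list was 6375 to 6801 units in cyclin D1 -/- pools and 12084 to 12660 units in wildtype pools. Amacrine and horizontal cell genes had 5 of 10 tested members called lower, among them the fate factors Ptf1a (-2.40) and Tfap2b (-1.57). Negative differences were found in 9 of the 10. The summed signals of this list were 1726 to 2110 and 2828 to 3965 units in cyclin D1 -/- and wildtype pools. The part of either list in the Rorb difference was not tested.

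Otx2, at the head of the network, had the smallest difference of the 7 factors. It gave 11.15, 10.90 and 11.04 in cyclin D1 -/- pools and 11.13, 11.00 and 10.89 in wildtype pools. The ranges of the genotypes nearly coincided. The difference was 0.02 with a 95% interval of -0.18 to 0.23 (adjusted p = 0.969), which as a fold runs from 0.880 to 1.17. A missed threshold does not show that the levels were equal. Pigment epithelium, which also uses Otx2, had 1 of 7 tested markers called lower, the melanosome gene Pmel (difference -0.52, adjusted p = 0.0948), and none called higher. Over all tested genes 2.63% were called lower and 2.03% higher. The Pmel call held in 9 of 22 alternatives, and ended without any 1 array other than wildtype pool 3 (adjusted p = 0.230 to 0.316) and under the error model of the labels (0.414). The summed signal of the 13 pigment epithelium markers was 1145 to 1217 units in cyclin D1 -/- and 1320 to 1761 units in wildtype pools. Of the 13, 6 were too dim to be tested, Rpe65 among them. The part of pigment epithelium in the Otx2 value was not tested.

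Crx gave 9.50, 9.69 and 9.81 in cyclin D1 -/- pools and 9.35, 9.41 and 9.32 in wildtype pools. Cyclin D1 -/- pools lay above the wildtype pools throughout, and were spread more widely than these. The difference of 0.31 (95% interval 0.08 to 0.53) did not pass after adjustment (adjusted p = 0.186). Its second probe set, 1449185_at, read 8.88, 8.78 and 9.06 in cyclin D1 -/- pools and 8.70, 8.50 and 8.65 in wildtype pools, and its difference of 0.29 was of the same size. Within the sets of arrays with brighter and dimmer controls the Crx difference was 0.27 and 0.44.

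Nrl, the rod fate factor, gave 10.58, 10.51 and 10.71 in cyclin D1 -/- pools and 10.48, 10.21 and 9.99 in wildtype pools. The gap between the genotypes was narrow, since wildtype pool 1 lay just below the lowest cyclin D1 -/- pool. The difference was 0.37 (95% interval 0.09 to 0.66, adjusted p = 0.214), and without wildtype pool 1 it was 0.50 and passed (adjusted p = 0.0979). Within the sets it was 0.55 with brighter and 0.36 with dimmer controls.

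Rxrg, the retinoid X receptor gamma, which in cones keeps S opsin out of M opsin cells, gave 8.15, 8.17 and 8.06 in cyclin D1 -/- pools and 7.89, 7.68 and 7.58 in wildtype pools. The cyclin D1 -/- pools were close together and above the wildtype pools. The difference of 0.41 (95% interval 0.13 to 0.68) did not pass (adjusted p = 0.149). Without wildtype pool 3 it was 0.34 and passed (adjusted p = 0.0752). Rxrg is also made by ganglion cells, whose markers had 5 of 13 tested members called higher, among them the synuclein gene Sncg (0.86), and none called lower. All 13 had positive differences (median 0.38), and 2.03% of all tested genes were called higher. The summed signal of the ganglion cell markers was 7527 to 7623 units in cyclin D1 -/- pools and 5033 to 5328 units in wildtype pools. The part of ganglion cells in the Rxrg value was not tested.

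Thrb, the thyroid hormone receptor beta needed for M opsin, gave 6.56, 6.56 and 6.43 in cyclin D1 -/- pools and 6.35, 6.21 and 6.70 in wildtype pools. Wildtype pool 3 lay above every cyclin D1 -/- pool, and the other wildtype pools below. The difference was 0.10 with a wide interval of -0.28 to 0.48 (adjusted p = 0.926), and without wildtype pool 2 its sign turned (-0.0068). The annotation does not say whether the probe set tells apart the retinal and the general form of the receptor.

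Mef2c was highest on the 3 arrays with brighter hybridisation controls, which span both genotypes. Its brightest probe set gave 6.66, 6.80 and 6.45 in cyclin D1 -/- pools and 6.42, 6.34 and 6.96 in wildtype pools. Wildtype pool 3 and cyclin D1 -/- pools 1 and 2 had the highest values, and the genotypes overlapped. The difference was 0.06 (95% interval -0.40 to 0.52, adjusted p = 0.962), and it was -0.23 within the brighter and 0.07 within the dimmer set. Of its 5 probe sets, 3 were tested and differed by -0.07 to 0.10, and 1451506_at and 1451507_at were too dim. Mef2c is also made by endothelium, microglia and muscle. Of 4 endothelial, 5 microglial and 5 skeletal muscle markers bright enough to be tested, out of 11 listed for each, none passed in limma or in the error model of the labels, and 1 (Cldn5, lower) had an unadjusted p under 0.05. In cyclin D1 -/- and wildtype pools the summed signals were 1522 to 1552 and 1568 to 1609 units for endothelium, 760 to 798 and 745 to 806 for microglia, and 1037 to 1275 and 908 to 994 for muscle. Median differences of the tested markers were -0.03, 0.04 and 0.27. In the endothelial sum Kdr alone read 1040 to 1116 units. Cldn5 read 82, 79 and 60 units in cyclin D1 -/- and 157, 174 and 95 units in wildtype pools. Pecam1, Vwf, Itgam, Myog and Myh3 were among the markers too dim to be tested. Of the 6 dim muscle markers, Myh3 (0.96), Actc1 (0.87), Tnnc2 (0.76) and Myl1 (0.51) were higher in every cyclin D1 -/- pool than in any wildtype pool. Myog (0.26) and Tnnt3 (0.10) overlapped. The part of endothelium, microglia and muscle in the Mef2c values was not tested.

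**Figure D2:**
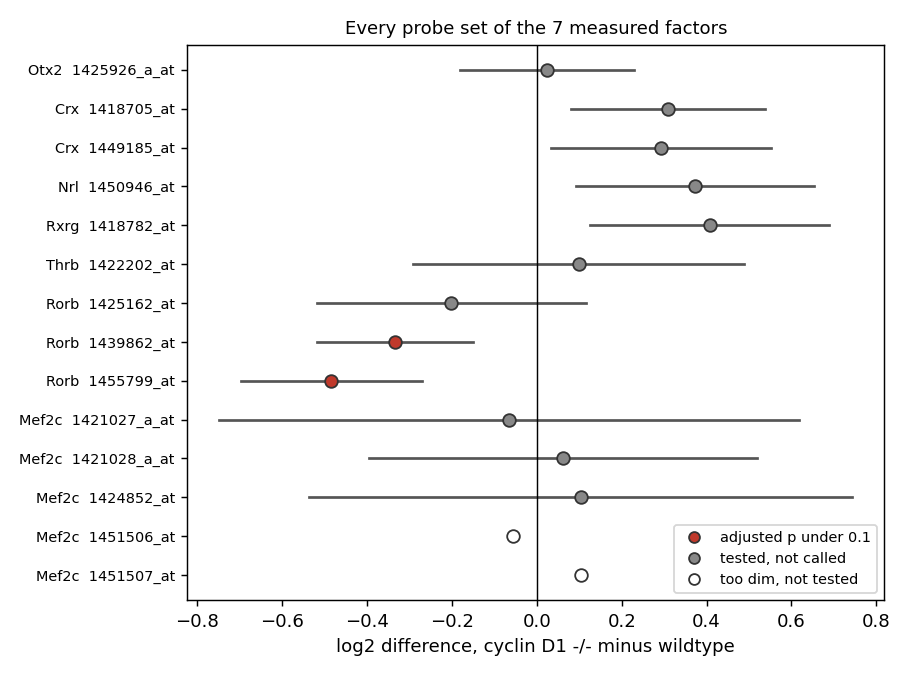
Difference of each of the 14 probe sets (x axis, log2, cyclin D1 -/- minus wildtype; lines are 95% intervals of the limma fit, red points passed at an adjusted p under 0.1, open points were too dim to be tested). Of the 12 tested, the 2 that passed are Rorb probe sets (-0.48 and -0.33), both Crx probe sets lie near 0.3, and the Mef2c intervals are the widest.

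**Figure D3:**
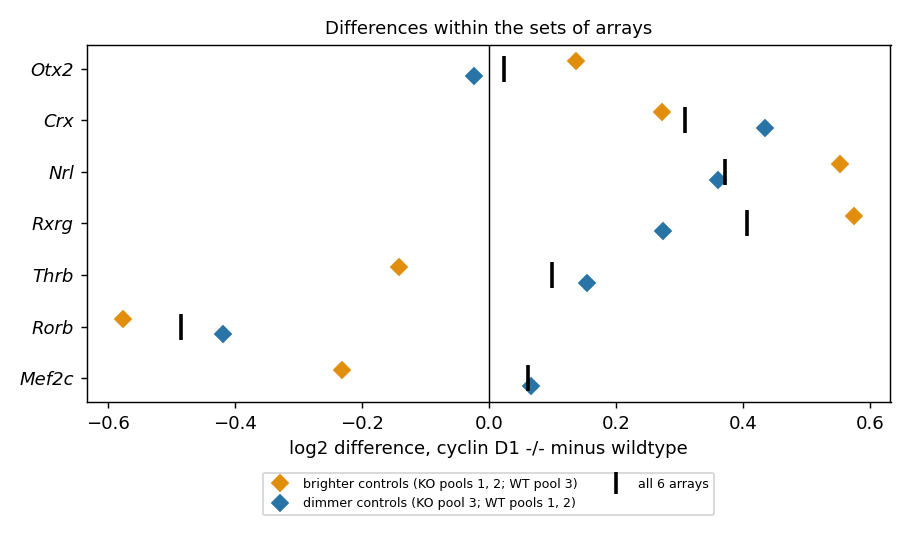
Difference of each factor (x axis, log2, cyclin D1 -/- minus wildtype) over all 6 arrays (bar) and within the arrays with brighter (orange) or dimmer (blue) hybridisation controls. Rorb is below 0 in both sets and Crx, Nrl and Rxrg are above 0 in both, whereas Otx2, Thrb and Mef2c change sign between the sets.

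Genes that act with the factors or belong to their families had no call among those bright enough to be tested. Of 10 tested partners in photoreceptor fate, none passed in limma or in the error model of the labels, and 1 had an unadjusted p under 0.05 (median difference 0.10, against 0.02 for all tested genes). This was Neurod1, a proneural factor kept on in photoreceptors, at 10.98 ± 0.06 in cyclin D1 -/- and 10.75 ± 0.07 in wildtype pools (SD, n = 3 each, adjusted p = 0.143). Onecut2, with a role in early cones and horizontal cells, was next with a difference of -0.40 (adjusted p = 0.427). Prdm1, which keeps Otx2-positive cells from becoming bipolar cells, differed by 0.11 (adjusted p = 0.855). Of the 14 partners with a probe set, 4 were too dim to be tested. Among these Olig2 was lower by 0.99 without overlap (signals 26, 18 and 20 against 68, 69 and 42 units in wildtype pools). Onecut1 (-0.19), Samd7 (0.56) and Sall3 (0.31) overlapped. Of 9 tested family relatives, such as Thra, Rora, Rxra and Mef2d, none passed in either model or had an unadjusted p under 0.05 (median 0.06). The 2 with the smallest p were Mef2d (0.19, adjusted p = 0.681) and the thyroid hormone receptor alpha gene Thra (0.11, adjusted p = 0.697). For Mef2d another probe set, the one with the largest difference, gave -0.28. Rora, the relative nearest to Rorb, was at 7.76 ± 0.19 in cyclin D1 -/- and 7.78 ± 0.12 in wildtype pools, a difference of -0.02 (adjusted p = 0.988). Of the 11 relatives with a probe set, 2 were too dim to be tested. Otx1 was higher by 0.46 without overlap, at signals of 6.9, 8.4 and 24.7 against 6.4, 5.5 and 2.2 units in wildtype pools. Mef2b (-0.02) overlapped.

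Genes that hold progenitors back from photoreceptor fate moved both ways. Of 9 tested, 4 were called lower and 2 called higher (median -0.08), against 2.63% and 2.03% of all tested genes. Notch1, a receptor whose loss turns progenitors into photoreceptors, fell by 0.83 (adjusted p = 0.00608), and its target Hes5 fell by 0.88 (adjusted p = 0.00373). The progenitor factors Lhx2 and Sox2 fell by 0.66 and 0.56, and the inhibitors of proneural factors Id3 and Id1 were higher by 1.30 (adjusted p = 0.0169) and 0.67 (adjusted p = 0.0689). Under the error model of the labels Lhx2, Sox2 and Id1 lost their calls (adjusted p = 0.101, 0.105 and 0.132). The Sox2 call also ended in the signals as deposited (adjusted p = 0.147) and with median centring (adjusted p = 0.230). When the 2 closest pools per genotype were averaged into 1, Hes5 alone kept its call (adjusted p = 0.0982). The Id1 call also ended without wildtype pool 2 or any 1 cyclin D1 -/- pool (adjusted p = 0.118 to 0.281).

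Downstream genes of the network that were bright enough to be tested had mostly positive differences. These were 13 of 15 tested early photoreceptor genes, 7 of 7 tested rod genes and 9 of 10 tested cone genes, against 54.3% of all tested genes. The 8 rod genes too dim to be tested went both ways, as given below. Of the early photoreceptor genes 2 were called higher and none lower (median 0.27), of the rod genes 1 was called higher (median 0.37), and of the cone genes 2 were called higher (median 0.44). Over all tested genes 2.03% were called higher and 2.63% lower, and the median was 0.02. The phosducin gene Pdc gave 10.95, 10.89 and 11.02 in cyclin D1 -/- pools and 10.32, 10.19 and 9.88 in wildtype pools, with no overlap (adjusted p = 0.00870). Opn1sw, the S opsin gene, gave 10.38, 10.29 and 9.82 in cyclin D1 -/- pools and 9.46, 9.36 and 8.63 in wildtype pools. It passed (difference 1.01, adjusted p = 0.0685), and its difference was 1.70 within the arrays with brighter and 0.41 within those with dimmer controls. Gnb3, a cone transducin subunit, was higher by 0.49 (adjusted p = 0.0424), Pde6g, a rod phosphodiesterase subunit, by 0.55 (adjusted p = 0.0803) and Tulp1, a transport protein of photoreceptors, by 0.45 (adjusted p = 0.0752).

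The calls among downstream genes changed with single arrays. Without cyclin D1 -/- pool 1 or 2 or wildtype pool 2 no cone gene passed, without cyclin D1 -/- pool 3 there was 1, and without wildtype pool 3 there were 6. No rod gene passed without any 1 of the pools other than wildtype pool 3, and without that pool there were 2. Early photoreceptor genes had 1 call without any 1 of those same 5 pools, and partners in photoreceptor fate had 2 without wildtype pool 3. Of 15 rod genes with a probe set, 8 were too dim to be tested, among them Gnat1, Prph2 and Grk1, which come on later in development. Of these dim genes, Pde6a (-0.52, without overlap), Slc24a1 (-0.08), Grk1 (-0.03) and Reep6 (-0.02) had negative differences. Gnat1 (0.40), Cnga1 (0.03), Prph2 (0.11) and Samd7 (0.56) had positive ones. Of 12 cone genes, 2 were too dim, Opn1mw and Slc24a2.

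**Figure D4:**
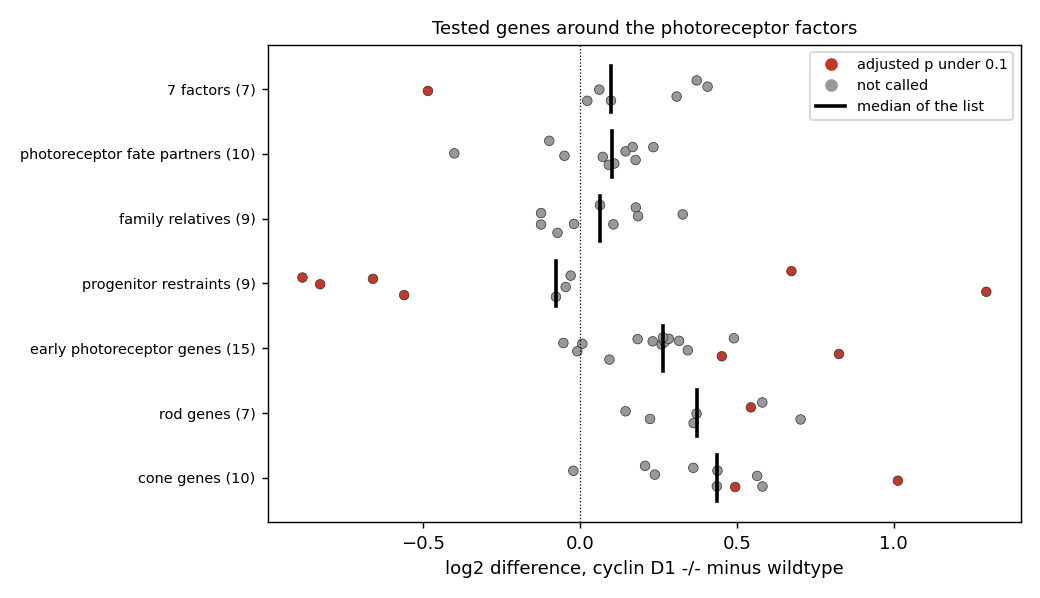
Difference of each tested gene (x axis, log2, cyclin D1 -/- minus wildtype) for the 7 factors and 6 lists around them, with the number tested in brackets, the list median as a black bar and calls at an adjusted p under 0.1 in red. The medians are 0.10 for the factors and 0.27, 0.37 and 0.44 for early photoreceptor, rod and cone genes.

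Markers of the other cells in the samples complete the description. Bipolar cell genes, which Otx2 and Crx also serve, had none of 6 tested members called in limma or in the error model of the labels, and 1 (Irx5, lower) had an unadjusted p under 0.05. Of the 11 with a probe set, 5 were too dim to be tested (Vsx1, Bhlhe23, Cabp5, Pcp2 and Gng13). Of the 6 tested, 3 had positive and 3 had negative differences (median -0.0015). Irx5 had the largest, -0.49, at 8.17 ± 0.24 in cyclin D1 -/- and 8.65 ± 0.12 in wildtype pools (SD, n = 3 each). The summed signal of all 11, Irx5 among them, was 912 to 1040 units in cyclin D1 -/- pools and 1042 to 1114 units in wildtype pools. The part of bipolar cells in the Otx2 and Crx values was not tested. Lens genes had 13 of 17 tested members called higher, against 2.03% of all tested genes. All 17 had positive differences with an unadjusted limma p under 0.05. The summed signal of the lens genes was 28391 to 73099 units in cyclin D1 -/- and 3699 to 10179 units in wildtype pools. The part of lens tissue in the values of the factors was not tested.

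For each factor the 3 tested genes with the most similar profile were found as the smallest root mean square difference of centred log2 values over the 6 arrays. For Rorb these were Psmc3ip, Tsga10 and Ran (0.06 in each case), of which Psmc3ip (difference -0.57, adjusted p = 0.0551) and Ran (-0.44, adjusted p = 0.00889) also passed as lower. For Rxrg they were Etfdh, Icmt and Eif4a2 (0.04 each), of which Eif4a2 passed as higher (0.45, adjusted p = 0.0411). Those nearest to Crx were Sec14l2, Fam124a and Rasgrf2 (0.04 each), and those nearest to Nrl were Denn2b, Cdh11 and Uhmk1 (0.05 each), and none of these 6 passed. Otx2 was nearest to Sec23b, 1700003F12Rik and Map2k5, Thrb to Rnf8, Hagh and Zfp945, and Mef2c to Ubtd1, Zmat2 and Hgs. None of the 7 factors was among another factor's 3 nearest genes. Genes chosen this way tend to share the genotype difference of their factor, so their calls are not separate evidence.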

How the data were processed

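Newborn retinas of cyclin D1 -/- and wildtype mice were dissected and pooled, and their RNA was amplified once, biotinylated and put on 1 Affymetrix array per pool, per the labels' protocols. The deposited table holds 1 linear intensity per probe set and array. Which program and scaling the authors used is not given in the labels, and the table carries no detection column.

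Control probe sets (64 of 45101) were dropped. The platform annotation gave 1 symbol for 34945 of the others, several for 932 and none for 9160, and only the first kind was named. Current symbols were looked up by Entrez identifier, which matched for 34741 probe sets (RefSeq, GRCm38.p6). Intensities were quantile normalised, floored at 1 and taken to log2(value + 16). Each gene was represented by its probe set with the highest mean, and 7277 genes, the dimmest 40%, went untested. limma 3.58.1 in R 4.3.3 (lmFit, eBayes with trend) compared the genotypes without covariates, two-sided, with Benjamini-Hochberg adjustment over 10916 genes and the labels' threshold of 0.1. Probe sets were fitted likewise (20967 tested). The fit was tested on simulated data. The 3 pools per genotype were kept as samples. Figures were drawn with matplotlib 3.10.9.

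The members, lists and tests were chosen with earlier results of these data known. Genes named are the 8 members, Ccnd1, up to 4 called genes per list (for a pathway list without one, the 2 with the smallest p) and the 3 nearest genes of each factor. Id1, Id3, Prdm1, Rora, Rxra, Irx5, Cldn5, Kdr, Ttr, Tyrp1, Oca2 and the dim genes fall outside it and were chosen after seeing their values. Alternatives covered scaling, pseudocount, filter, probe set, variance model, threshold, blocks, averaged pools and leaving out each array, with genes and normalisation kept from all 6 arrays. Array weights used the gene-by-gene method, since the default did not converge.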

Additional observations from a re-analysis of the deposited data

How the results depend on the processing

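Of the 7 factors, Rorb kept its direction in 22 alternatives and its call in 14, with adjusted p from 0.00745 to 0.307. Beside the settings named above, its call ended without an intensity trend (adjusted p = 0.103) and under the error model of the labels (0.152). Crx, Nrl and Rxrg kept their direction in 22 alternatives each and passed in 3, 3 and 4 of them, among these the values as deposited and the set of arrays as a block for all 3. Otx2 turned with array weights (-0.078), without wildtype pool 3 and without cyclin D1 -/- pool 1 (without 1 array, -0.036 to 0.087). Mef2c turned with the set as a block or averaged pools (-0.082 in both) and without wildtype pool 1 or 2 or cyclin D1 -/- pool 2 (without 1 array, -0.053 to 0.26). Thrb turned without wildtype pool 2 (without 1 array, -0.0068 to 0.24) and Mef2d with the probe set of largest difference (-0.28), and none of these values passed. The causes were not tested.

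With all genes, 222 were higher and 287 lower. These became 416 and 176 with values as deposited (70.3% of calls higher against 43.6%), 156 and 135 with median centring (53.6% higher), 1857 and 1747 with array weights, 88 and 120 with the error model of the labels, 127 and 195 at a threshold of 0.05, 126 and 143 with the replicate block, 597 and 433 with a block for the set of arrays (58.0% higher), and 17 and 26 with averaged pools. Without 1 array they ran from 68 to 862 higher and from 99 to 1055 lower.

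Factors higher, by gene and by probe set, numbered 3 and 2 as deposited, 2 and 2 under array weights, and 3 and 3 once the set was a block, against 0 and 0. Factors lower, by gene and by probe set, numbered 0 and 0 as deposited, with median centring, without a trend, with the error model of the labels and with averaged pools, against 1 and 2. Probe sets lower numbered 1 with no filter, at a threshold of 0.05 and with the replicate block. Without 1 array, genes higher and lower ran from 0 to 1, probe sets higher from 0 to 1 and probe sets lower from 0 to 2.

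Calls among partners became 1 with no filter or the set as a block, 2 with the probe set of largest difference and 3 with array weights (0 to 2 without 1 array), and among family relatives 1 with the set as a block (0 to 0 without 1 array). Progenitor genes had 3 with the error model of the labels and 1 with averaged pools (5 to 6 without 1 array). Early photoreceptor genes had 1 with median centring, no filter, no trend, the error model of the labels, the threshold of 0.05 or the replicate block, 8 with the set as a block and 0 with averaged pools (1 to 2 without 1 array). Rod genes had 0 in those same settings other than the set as a block, where there were 5, 2 as deposited and 3 with array weights (0 to 2 without 1 array). Cone genes had 4 as deposited, 1 with no filter, the mean of probe sets, the threshold of 0.05 or the replicate block, 7 with array weights, 6 with the set as a block, and 0 without a trend, with the error model of the labels or with averaged pools (0 to 6 without 1 array).

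Deviations of same-numbered pools from their genotype means correlated at 0.17, -0.35 and -0.48 over genes, so the numbers were not taken to pair the pools. With the replicate block Rorb kept its call (adjusted p = 0.0508), and no factor gained one. Thrb was too dim under the stricter filter and Mef2c under 3 settings, which left 21 and 19 alternatives. Without detection calls the dim genes have no bound from background.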
